A study of Mus musculus with 18 samples.

Results

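The matrix metalloproteinases (MMPs), the ADAM and ADAMTS proteases and the tissue inhibitors of metalloproteinases (TIMPs) were examined in RNA-seq profiles of 3 mouse fat depots. Members were every symbol of these 4 families in the deposited tables, namely 23 Mmp, 32 Adam, 19 Adamts and 4 Timp genes, 78 of the 45151 symbols found in all samples' tables. The rule matched symbols and used no measured value, and it was set with earlier results of these data known. The samples were 6 of mature adipocytes from inguinal white fat (iWAT), 6 of mature adipocytes from epididymal white fat (eWAT) and 6 of brown adipose tissue (BAT). All came from wild type C57BL/6J males 16 weeks old and fed regular chow. The study collected these profiles to list the receptors that fat cells express, and the depot was the only factor that differed by design. The iWAT and eWAT cells were freed with 3.3 mg/ml collagenase I for 30 to 45 min at 37 °C and taken from the top of the suspension, where fat cells float. BAT was frozen as intact tissue, although its cell type label reads adipocytes. White against brown fat therefore cannot be told apart from digested, floated cells against frozen tissue. The labels do not say what the number in a sample's title stands for, so p-values measure the spread between these samples.

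MMPs are zinc-dependent proteases that are made as inactive precursors and cut collagens, elastin and other matrix proteins. ADAMs are mostly membrane-anchored and release the outer parts of cell surface proteins, whereas ADAMTS proteases are secreted, bind the matrix and trim procollagens and proteoglycans. TIMPs bind the active site of these enzymes and block it. In fat, this system shapes the collagen shell around each adipocyte and the vessels that grow with the tissue.

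Levels are given as RPKM, read counts scaled to the length of the row and to the sample's read total, which puts genes on 1 per-length scale. The totals behind the RPKM were 22929576 to 34512470 reads per sample. The iWAT and BAT tables have a row for each gene with its exons merged, whereas the eWAT tables have a row for each transcript, of which the most-read one was used. The merged row of a tested member was longer than its eWAT row by a median factor of 1.22 and by up to 3.38 times, so an eWAT level sits on a shorter row. For this reason every comparison with eWAT was also made with row length left out, and a call was taken as firm where both scales gave it. BAT samples carried the brown adipocyte markers (summed RPKM of Ucp1, Cidea, Dio2, Elovl3 and Zic1 between 1744 and 2322), which summed to at most 28.3 in iWAT and 4.17 in eWAT. The sum of 5 general adipocyte markers was 3330 to 5074 in iWAT, 2903 to 6536 in eWAT and 725 to 951 in BAT. Samples stood apart in 3 respects. The sum of 7 macrophage markers was 2049 in eWAT sample 15 and 145 to 490 in the other eWAT samples, epididymal markers summed to 63.0 and 60.8 in eWAT samples 14 and 15 and at most 3.62 in the other 4, and skeletal muscle markers summed to 1340 in BAT sample 12.

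A member was taken as expressed in a depot where its mean RPKM reached 1. Of the 78 members, 28 were expressed in some depot and 17 in every depot, and the depots had 18 (BAT), 21 (iWAT) and 28 (eWAT). The eWAT count rests on its shorter rows and includes Adam7, with a mean of 4.37 RPKM but a median of 0.0138. Another 7 members, namely Adam25, Adam26a, Adam26b, Adam29, Adam34, Adam39 and Mmp20, had no read in any sample, where 3 reads would have given an RPKM of 0.0265 to 0.0544. Tests were run on the 43 members that had 10 or more reads in 6 or more of the samples. A gene can pass such a filter through the depot where it is high, so the counts of called members are descriptions. For 6 members the filter was reached only with the reads of a depot where they are high, namely BAT for Adam1a, Adam1b and Adamts3, eWAT for Mmp13 and Timp1, and iWAT, with 1 eWAT sample, for Adam3. Their differences from that depot are given as values with no p-value. In counts, lists and figures their calls are kept as descriptions only. In bulk RNA, fewer cells of a type and less RNA per cell cannot be told apart.

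The families took different shares of the summed RPKM in each depot. In iWAT the ADAMTS proteases held a median of 51.8% (37.5 to 56.8%), in eWAT the TIMPs held 40.7% (20.6 to 46.7%), and in BAT the ADAMs held 31.3% (27.0 to 33.1%) and the TIMPs 30.6% (25.7 to 37.8%). Over all members the median summed RPKM was 90.8 in BAT, 330 in iWAT and 602 in eWAT. In eWAT sample 15 the MMPs held 49.3%, against 11.9% at the lowest in that depot. The eWAT figures rest on its shorter rows. With eWAT reads put over the merged row lengths, which was tried only after the data had been seen, the median sum in eWAT was 373, the TIMPs held 25.9% and the ADAMTS proteases held 38.5% in place of 26.8%.

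**Figure D1:**
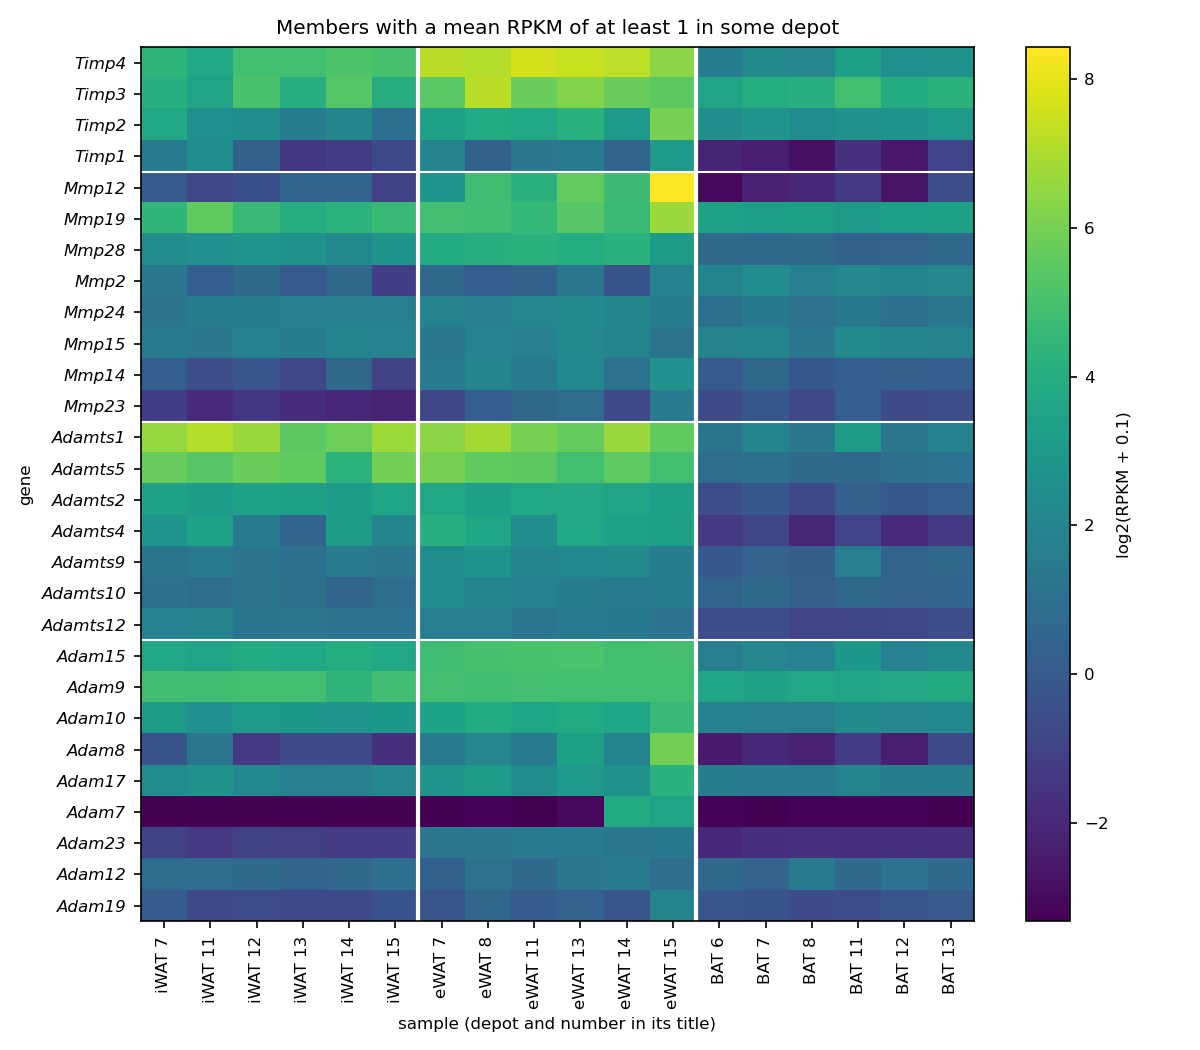
Heat map of log2(RPKM + 0.1) for the 28 members expressed in some depot (rows, by family) in the 18 samples (columns, by depot). Adamts1 and Adamts5 are bright in all 12 white adipocyte samples and less bright in BAT, and Timp4 is brightest in eWAT. Mmp12 peaks in eWAT sample 15 and Adam7 has signal in eWAT samples 14 and 15.

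Of the 23 Mmp genes, 10 lie in 1 cluster on chromosome 9 (mm9, 7272514 to 7699585), which includes the metalloelastase Mmp12, the collagenase Mmp13, the stromelysin Mmp3 and the matrilysin Mmp7. Their promoters are a textbook case of control by AP-1, the dimer of Fos and Jun proteins, so the AP-1 heptamer was searched on both strands (TGACTCA, or TGAGTCA read on the other strand) in the 300 bases of each RefSeq promoter (250 before to 50 after the start, GRCm38.p6). It was found in 7 of the 10 cluster promoters and in 10 of the 53 member promoters in that table, against 5.20% of all 32851 promoters. The 120 bases upstream of the start are shown for the 4 cluster genes that the results return to, from chr9:7347254-7347373, chr9:7272394-7272513, chr9:7445702-7445821 and chr9:7691970-7692089, all on the plus strand, with the heptamer in capitals.
Mmp12: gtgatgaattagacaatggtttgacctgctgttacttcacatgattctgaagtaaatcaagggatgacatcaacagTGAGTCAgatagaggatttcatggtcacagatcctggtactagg
Mmp13: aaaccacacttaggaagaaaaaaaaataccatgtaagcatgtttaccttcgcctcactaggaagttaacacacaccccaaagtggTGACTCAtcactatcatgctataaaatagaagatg
Mmp3: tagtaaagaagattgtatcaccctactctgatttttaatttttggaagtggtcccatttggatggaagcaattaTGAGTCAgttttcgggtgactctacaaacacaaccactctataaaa
Mmp7: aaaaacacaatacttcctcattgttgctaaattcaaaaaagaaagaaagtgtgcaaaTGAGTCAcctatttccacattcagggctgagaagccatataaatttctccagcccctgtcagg

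The heptamer lies 44 to 38 bases before the start in Mmp12, 35 to 29 in Mmp13, 46 to 40 in Mmp3 and 63 to 57 in Mmp7. A match describes the letters of this window and is neither a measured binding site nor a cause. The 4 genes had unlike patterns across the depots: Mmp12 and Mmp13 were higher in eWAT than in iWAT, Mmp3 was lower, and Mmp7 had reads in eWAT samples alone. Of the 3 cluster genes without the heptamer in this window, Mmp20 had no read, and Mmp8 and Mmp27 had means of at most 0.124 RPKM. Mmp10, Mmp1a and Mmp1b, which carry the heptamer, had means of at most 0.0210 RPKM, so genes with and without it were near absent.

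TIMPs, the inhibitors, differed in level and in pattern. Timp4, which is known for its high expression in adipocytes and heart, had an RPKM of 12.9 to 36.5 (median 29.2) in iWAT, 83.2 to 197 (median 152) in eWAT and 3.10 to 9.86 (median 5.21) in BAT. No sample of iWAT overlapped with BAT, and all eWAT values lay above all others. Timp4 was higher in iWAT than in BAT by 2.11 ± 0.26 on the log2 scale (edgeR quasi-likelihood test, adjusted p = 1.07e-06). It was higher in eWAT than in BAT by 4.54 ± 0.29 on the per-length scale (adjusted p = 4.80e-11) and by 2.78 ± 0.27 with row length left out (adjusted p = 3.10e-08). Against iWAT the eWAT difference was 2.43 ± 0.26 per length and 0.68 ± 0.25 without it (adjusted p = 0.0550). With the longest Timp4 transcript in place of the most-read one, it was 0.44. The eWAT row of Timp4 is 1416 bp long and the merged row 4781 bp, so the step between the 2 white depots rests on the row used.

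Timp3, which binds to the matrix and also inhibits ADAM17 and aggrecanases, was the most abundant member in BAT, at 11.7 to 29.1 RPKM (median 15.7). It had 11.5 to 39.8 (median 16.8) in iWAT and 42.8 to 147 (median 55.1) in eWAT. The iWAT and BAT ranges overlapped, and the difference of 0.19 ± 0.32 did not pass the test (adjusted p = 0.617) and was -0.086 without iWAT sample 14. In eWAT, Timp3 was higher than in BAT by 1.76 ± 0.33 per length and 0.83 ± 0.32 without it (adjusted p = 7.45e-05 and 0.0262). With row length left out and the number in the title as a block, this difference was 0.66 and did not pass (adjusted p = 0.103). Within each depot the sample with the highest Timp3 was also the one with the highest sum of 5 endothelial markers, namely 145 (iWAT sample 14), 211 (eWAT sample 8) and 91.9 (BAT sample 11), where the depots' lowest sums were 25.5, 81.3 and 46.1. The part of vessel cells in Timp3 was not tested. In the annotation, 21.3% of its exonic bases are shared with Syn3 on the opposite strand, and the counting is not stated to use strand.

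Timp2, which inhibits MMPs and also helps to activate pro-MMP2, had 1.87 to 13.2 RPKM (median 4.91) in iWAT, 7.95 to 64.1 (median 13.8) in eWAT and 5.16 to 7.86 (median 6.51) in BAT. The highest values were in eWAT sample 15 and iWAT sample 7, which also had the highest macrophage sums of their depots (2049 and 147). Timp2 was higher in eWAT than in iWAT by 1.90 ± 0.50 per length and 1.79 ± 0.50 without it (adjusted p = 0.00333 and 0.0120). Without eWAT sample 15 that difference was 1.10, and the difference from BAT fell from 1.56 (adjusted p = 0.00753) to 0.76 (adjusted p = 0.0532), which no longer passed. With the number in the title as a block, the difference from BAT was 1.14 and did not pass either (adjusted p = 0.101).

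Timp1, an inducible inhibitor, was the least abundant, at 0.279 to 5.35 RPKM (median 0.820) in iWAT, 1.155 to 8.19 (median 2.56) in eWAT and 0.0421 to 0.417 (median 0.114) in BAT. It was higher than in BAT by 3.21 ± 0.80 in iWAT (adjusted p = 0.00180) and by 4.10 ± 0.80 in eWAT, on a row that is the same in all tables. The lowest iWAT values overlapped with BAT, and without iWAT sample 11, the highest, the iWAT difference was 2.44. The difference between the white depots, 0.89 ± 0.65, was 1.65 without that sample.

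**Figure D2:**
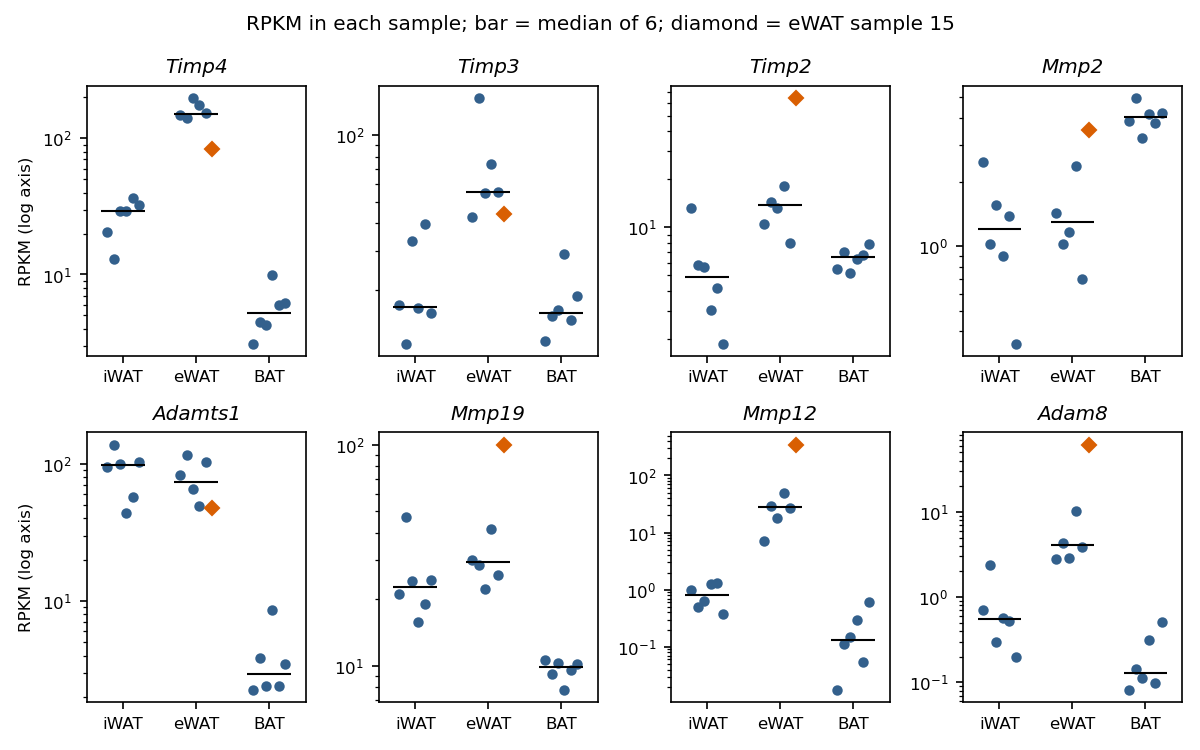
RPKM of 8 members in each sample on log axes, with the median of the 6 samples of a depot as a bar and eWAT sample 15 as a diamond. Timp4 and Adamts1 separate white adipocytes from BAT, Mmp2 is highest in BAT, and eWAT sample 15 is the highest sample of all for Timp2, Mmp19, Mmp12 and Adam8 and the lowest eWAT sample for Timp4.

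The secreted ADAMTS proteoglycanases cut aggrecan, versican and related proteoglycans. Of them, Adamts1, Adamts4 and Adamts5 stepped up most from BAT to white adipocytes. In iWAT all 5 tested members of this group (Adamts1, Adamts4, Adamts5, Adamts9 and Adamts15) were called higher than in BAT. Over all 43 tested members, 17 were called higher in iWAT and 10 lower, where 65.2% of the 18383 symbols tested were called, 37.1% higher and 28.1% lower. The median log2 fold change of the tested members was 0.38, beside 0.114 for all symbols.

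Adamts1, an induced proteoglycanase, was the most abundant member in iWAT, at 44.1 to 138 RPKM (median 97.3), and had 47.8 to 116 (median 73.9) in eWAT and 2.24 to 8.60 (median 2.94) in BAT. All white adipocyte samples lay above all BAT samples. The difference from BAT was 4.40 ± 0.36 in iWAT (adjusted p = 3.62e-09) and 4.14 ± 0.35 in eWAT (adjusted p = 3.26e-09; 4.01 with row length left out). The white depots did not differ beyond their spread (-0.26 ± 0.31, adjusted p = 0.513).

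Adamts5, the main aggrecanase of mouse cartilage, lies beside Adamts1 on chromosome 16 and has the same 8104 bp row in all tables. Its RPKM was 19.2 to 60.7 (median 48.9) in iWAT, 28.8 to 64.5 (median 45.3) in eWAT and 1.46 to 2.13 (median 1.73) in BAT. The difference from BAT was 4.51 ± 0.26 in iWAT (adjusted p = 2.44e-11) and 4.39 ± 0.25 in eWAT (adjusted p = 1.20e-11). The lowest white adipocyte sample, iWAT sample 14, was still above the highest BAT sample.

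Adamts4, the other well-known aggrecanase, had 1.30 to 10.3 RPKM (median 5.57) in iWAT, 5.76 to 16.8 (median 11.1) in eWAT and 0.136 to 0.449 (median 0.294) in BAT. Adamts4 exceeded BAT by 4.11 ± 0.45 in iWAT (adjusted p = 2.27e-07) and 5.04 ± 0.47 in eWAT (adjusted p = 1.04e-08). The iWAT and eWAT ranges overlapped, and the difference between the white depots was 0.93 ± 0.38 (adjusted p = 0.0498), or 0.76 with row length left out (adjusted p = 0.154), and its call was lost in 12 of the 18 fits that left out 1 sample. Adamts9 and Adamts15 moved less. Adamts9, at 2.36 ± 0.36 RPKM (SD, n = 6) in iWAT, 4.65 ± 1.2 in eWAT and 1.48 ± 0.87 in BAT, was at the threshold for iWAT against BAT (0.54 ± 0.23, adjusted p = 0.0492), a call lost in 13 of the 18 fits that left out 1 sample (adjusted p up to 0.207, without BAT sample 6). In eWAT, Adamts9 exceeded BAT by 1.45 per length, and by 0.52 with row length left out, which did not pass (adjusted p = 0.0529). Adamts15 was higher in iWAT than in BAT by 0.63 ± 0.17 (adjusted p = 0.00278), at means of 0.255 and 0.148 RPKM.

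These steps lie between frozen brown fat tissue and digested, floated white adipocytes, so depot and preparation cannot be told apart in them. The 6 immediate-early genes that digestion of tissue is known to induce (Fos, Fosb, Jun, Junb, Egr1 and Atf3) summed to 2019 to 3070 RPKM in iWAT, 1571 to 2242 in eWAT and 16.4 to 60.2 in BAT. All 6 were called higher in iWAT than in BAT and each had reads in BAT. Their part in the ADAMTS values was not tested.

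The procollagen N-proteinases, which trim newly made fibrillar collagens, split. Adamts2 had 8.49 to 11.95 RPKM (median 10.3) in iWAT, 9.94 to 13.4 (median 12.1) in eWAT and 0.509 to 1.13 (median 0.842) in BAT. The excess over BAT was 3.46 ± 0.15 in iWAT (adjusted p = 1.27e-12) and 3.62 ± 0.16 in eWAT (adjusted p = 2.45e-13; 3.26 with row length left out). Its relatives Adamts3 and Adamts14 had means of at most 0.201 RPKM. Adamts3 had 36 reads over the iWAT samples and 128 over BAT, and Adamts14 was called lower in iWAT, with a log2 fold change over BAT of -1.35 ± 0.47 (adjusted p = 0.0175). Adamts14 was higher in eWAT than in iWAT on both scales (2.37 ± 0.46 and 1.94 ± 0.46, adjusted p = 0.000266 and 0.00458). Adamts12, which cuts cartilage oligomeric matrix protein, was 2.72 ± 0.74 RPKM in iWAT, 2.68 ± 0.42 in eWAT and 0.515 ± 0.076 in BAT (SD, n = 6). It was higher than in BAT by 2.23 ± 0.17 in iWAT (adjusted p = 1.37e-09) and by 2.15 ± 0.17 in eWAT (adjusted p = 9.87e-10; 1.22 with row length left out). Between eWAT and iWAT the log2 fold change was -0.081 ± 0.16 per length (adjusted p = 0.710) and -1.01 ± 0.16 with row length left out, where Adamts12 was called lower in eWAT (adjusted p = 0.000194). Adamts10, which acts on fibrillin microfibrils, had 1.79 ± 0.29 RPKM in iWAT, 3.53 ± 0.86 in eWAT and 1.32 ± 0.17 in BAT. Its higher eWAT level was there on the per-length scale alone (1.20 against BAT, 0.0060 with row length left out).

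**Figure D3:**
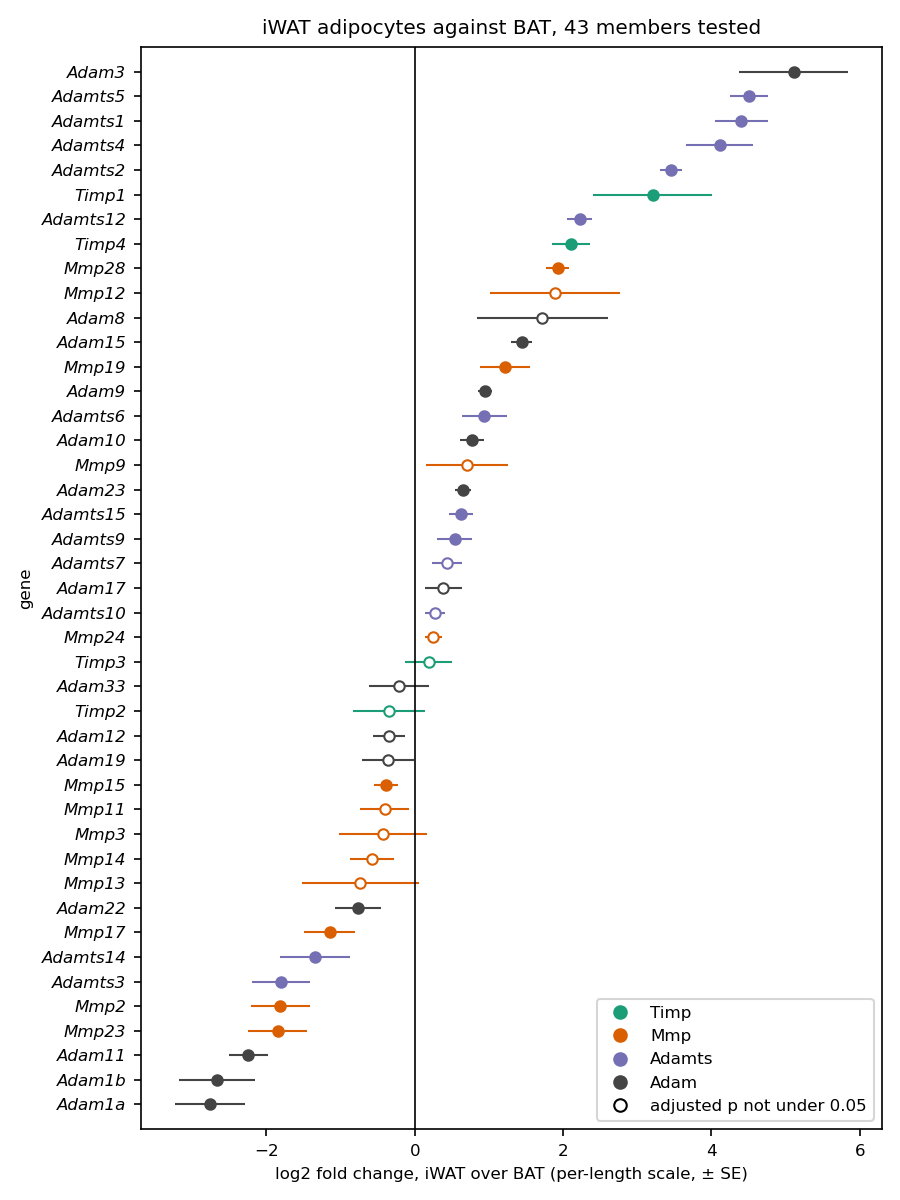
Log2 fold change of iWAT over BAT with its SE for the 43 members tested, coloured by family, filled where the adjusted p was under 0.05. Adamts5, Adamts1, Adamts4 and Adamts2 lead the ADAMTS genes above 3, Mmp2 and Mmp23 lie near -1.8, and Adam3 at the top rests on 3 BAT reads.

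The ADAMs with broad expression include the main sheddases. Adam9, which can shed growth factors, had 20.7 to 29.5 RPKM (median 28.3) in iWAT, 27.6 to 30.4 (median 29.2) in eWAT and 10.7 to 14.2 (median 12.5) in BAT. BAT was exceeded by 0.95 ± 0.10 in iWAT (adjusted p = 1.05e-07) and 1.002 ± 0.10 in eWAT (adjusted p = 2.37e-08; 0.98 with row length left out), with no overlap, and the white depots differed by 0.056 ± 0.097 (adjusted p = 0.669). Adam10, the sheddase of Notch receptors, had 6.07 to 8.33 RPKM (median 7.60) in iWAT, 11.1 to 24.0 (median 13.3) in eWAT and 3.21 to 4.64 (median 3.90) in BAT. The 3 RPKM ranges did not overlap, with an eWAT row of 4589 bp and a merged row of 6213 bp. The steps were 0.77 ± 0.17 from BAT to iWAT (adjusted p = 0.000491) and 0.95 ± 0.17 from iWAT to eWAT (adjusted p = 8.14e-05). With row length left out the eWAT step was 0.51 (adjusted p = 0.0277), and 0.29 also without eWAT sample 15 (adjusted p = 0.0441). It did not pass with row length left out and the number in the title as a block (adjusted p = 0.0629).

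Adam15, which carries an integrin-binding motif, also stepped up, from 3.15 to 7.51 RPKM (median 3.93) in BAT to 11.5 to 15.3 (median 13.1) in iWAT and 27.5 to 34.4 (median 31.3) in eWAT. It was higher in iWAT than in BAT by 1.44 ± 0.14 (adjusted p = 4.15e-08) and in eWAT than in BAT by 2.62 ± 0.15 (adjusted p = 6.70e-12; 1.85 with row length left out). It shares 20.5% of its exonic bases with a gene on the other strand, 4731419I09Rik. Adam17, the sheddase of tumour necrosis factor, had 4.49 ± 1.2 RPKM in iWAT, 8.90 ± 4.6 in eWAT and 3.06 ± 0.39 in BAT (SD, n = 6). Its eWAT mean held sample 15 at 18.04, where the other 5 had 5.55 to 8.31. The iWAT difference from BAT, 0.38 ± 0.25 (adjusted p = 0.177), did not pass with all samples and passed without eWAT sample 15 (adjusted p = 0.0209), which changed the shared estimate of the spread.

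Adam23, Adam22 and Adam11 lack the catalytic zinc site and act in adhesion and at synapses. Adam23 was 2.54 ± 0.20 RPKM in eWAT, 0.348 ± 0.039 in iWAT and 0.196 ± 0.021 in BAT (SD, n = 6), with no overlap. It was higher in eWAT than in iWAT by 2.82 ± 0.11 per length and 1.40 ± 0.11 with row length left out (adjusted p = 4.81e-13 and 3.15e-08). Its merged row is 17869 bp long and its eWAT row 6656 bp. Adam11 was lower in iWAT than in BAT by 2.24 on the log2 scale (SE 0.26, adjusted p = 4.13e-07), at means of 0.129 and 0.547 RPKM. Adam12 (1.59 ± 0.20 RPKM in iWAT, 1.95 ± 0.63 in eWAT and 1.78 ± 0.59 in BAT) was not called in any comparison on the per-length scale. With row length left out it was called lower in eWAT, with a log2 fold change over BAT of -0.80 ± 0.22 (adjusted p = 0.00336).

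Of 13 tested Mmp genes, 2 were called higher in iWAT than in BAT and 4 lower, where 37.1% and 28.1% of all symbols were. In eWAT against BAT, 6 were called higher and 4 lower on both scales, where 40.1% and 21.2% of all symbols were. The gelatinase Mmp2, which digests denatured collagen and basement membrane, had 0.350 to 2.49 RPKM (median 1.21) in iWAT, 0.704 to 3.50 (median 1.30) in eWAT and 3.24 to 4.96 (median 4.05) in BAT. It was lower than in BAT by 1.81 ± 0.39 in iWAT, with no overlap (log2 fold change -1.81, adjusted p = 0.000542), and the log2 fold change was -1.44 ± 0.39 in eWAT (adjusted p = 0.00241), where sample 15 alone reached the BAT range. Mmp23, a small membrane-tethered member, was lower in iWAT (0.209 ± 0.086 RPKM) than in BAT (0.678 ± 0.22), with a log2 fold change of -1.85 ± 0.40 (adjusted p = 0.000464), and was 1.28 ± 0.82 in eWAT. The other gelatinase, Mmp9, was under 1 RPKM on average in every depot.

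Markers of fibroblasts and preadipocytes, cells known for Mmp2, went both ways between iWAT and BAT: of 7 tested, 2 were called higher in iWAT and 4 lower. Their sum, led by Dpt, was 470 to 750 RPKM in iWAT, 128 to 233 in eWAT and 29.9 to 44.2 in BAT, whereas Pdgfra was 0.154 in iWAT and 1.14 in BAT. Their part in the Mmp2 values was not tested.

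Mmp19 and Mmp28 were the 2 Mmp genes called higher in iWAT than in BAT. Mmp19, which cuts basement membrane proteins, had 15.7 to 47.3 RPKM (median 22.7) in iWAT, 22.3 to 100.02 (median 29.4) in eWAT and 7.76 to 10.6 (median 9.87) in BAT. The difference from BAT was 1.22 ± 0.34 in iWAT (adjusted p = 0.00431) and 1.91 ± 0.35 in eWAT (adjusted p = 6.00e-05). A share of 23.1% of its exonic bases lies in 1110012D08Rik on the other strand. Mmp28, or epilysin, had 4.70 to 6.98 RPKM (median 6.20) in iWAT, 8.38 to 18.5 (median 16.2) in eWAT and 1.15 to 1.60 (median 1.45) in BAT. It was higher than in BAT by 1.93 ± 0.16 in iWAT (adjusted p = 4.25e-09) and 3.22 ± 0.17 in eWAT (adjusted p = 2.49e-12; 2.04 with row length left out). The eWAT excess over iWAT, 1.29 per length, was 0.11 with row length left out (adjusted p = 0.628).

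The membrane-type MMPs act at the cell surface. Mmp14, which activates pro-MMP2 together with TIMP2, had 0.379 to 1.45 RPKM (median 0.687) in iWAT, 2.03 to 6.01 (median 3.48) in eWAT and 0.857 to 1.43 (median 1.04) in BAT. It was higher in eWAT than in iWAT on both scales (2.17 ± 0.31 and 1.09 ± 0.30, adjusted p = 8.43e-06 and 0.0125). Mmp15 (3.18 ± 0.55, 3.34 ± 0.87 and 3.72 ± 0.77 RPKM in iWAT, eWAT and BAT) and Mmp24 (3.03 ± 0.43, 3.81 ± 0.58 and 2.27 ± 0.34) varied less. Mmp15 was called lower than in BAT in both white depots, by 0.39 or less on the log2 scale (adjusted p = 0.0442 and 0.0435), and lost both calls in limma on log2 RPKM. Each call was also lost in 6 of the 18 fits that left out 1 sample (adjusted p up to 0.0972 for iWAT and 0.104 for eWAT). For eWAT these included the fit without eWAT sample 15 (adjusted p = 0.0992).

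In eWAT against BAT, 30 of the 43 tested members were called higher and 8 lower per length, where the background was 77.8% of symbols, 56.5% higher and 21.3% lower. With row length left out the split was 24 and 10 (background 71.1%, as 40.1% and 31.0%), and 24 and 8 were called on both scales (background 40.1% and 21.2%). All 4 TIMPs were among the 24, and Timp1 reached the filter only with its eWAT reads. With row length left out and the number in the title as a block, Timp2 and Timp3 did not pass. The median log2 fold change of the tested members was 1.45 per length and 0.68 without, beside 0.59 and 0.145 for all symbols. This comparison and that of iWAT with BAT share the BAT samples, so they are not separate evidence.

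In eWAT against iWAT, both prepared as floated adipocytes, 22 members were called higher in eWAT and 3 lower per length (background 50.7%, as 44.4% and 6.34%), and 13 higher and 5 lower with row length left out (background 25.8%, as 10.6% and 15.2%). On both scales 13 were higher, against a background of 10.6%, and 3 lower, against 5.62%. The 13 were Mmp12, Mmp13, Mmp14, Mmp23, Timp2, Adam8, Adam10, Adam11, Adam15, Adam19, Adam22, Adam23 and Adamts14, and the 3 were Mmp3, Adam3 and Adamts6. Of these, Mmp13 reached the filter only with its eWAT reads and Adam3 only with its iWAT reads, so both calls are descriptions. Without eWAT sample 15, the call of Adamts6 was lost per length (adjusted p = 0.0671), and those of Adam15 (0.40, adjusted p = 0.0518) and Adam19 (0.40, adjusted p = 0.170) with row length left out. With row length left out and the number in the title as a block, 8 of the 13 did not pass (adjusted p = 0.0555 to 0.128). These were Adam10, Adam15, Adam19, Adam22, Adamts14, Mmp13, Mmp14 and Timp2. Medians of the tested members were 0.92 per length and 0.41 without, beside 0.35 and -0.038 for all symbols. Only 4 of the 43 have the same row in all tables, among them Mmp13 and Timp1.

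**Figure D4:**
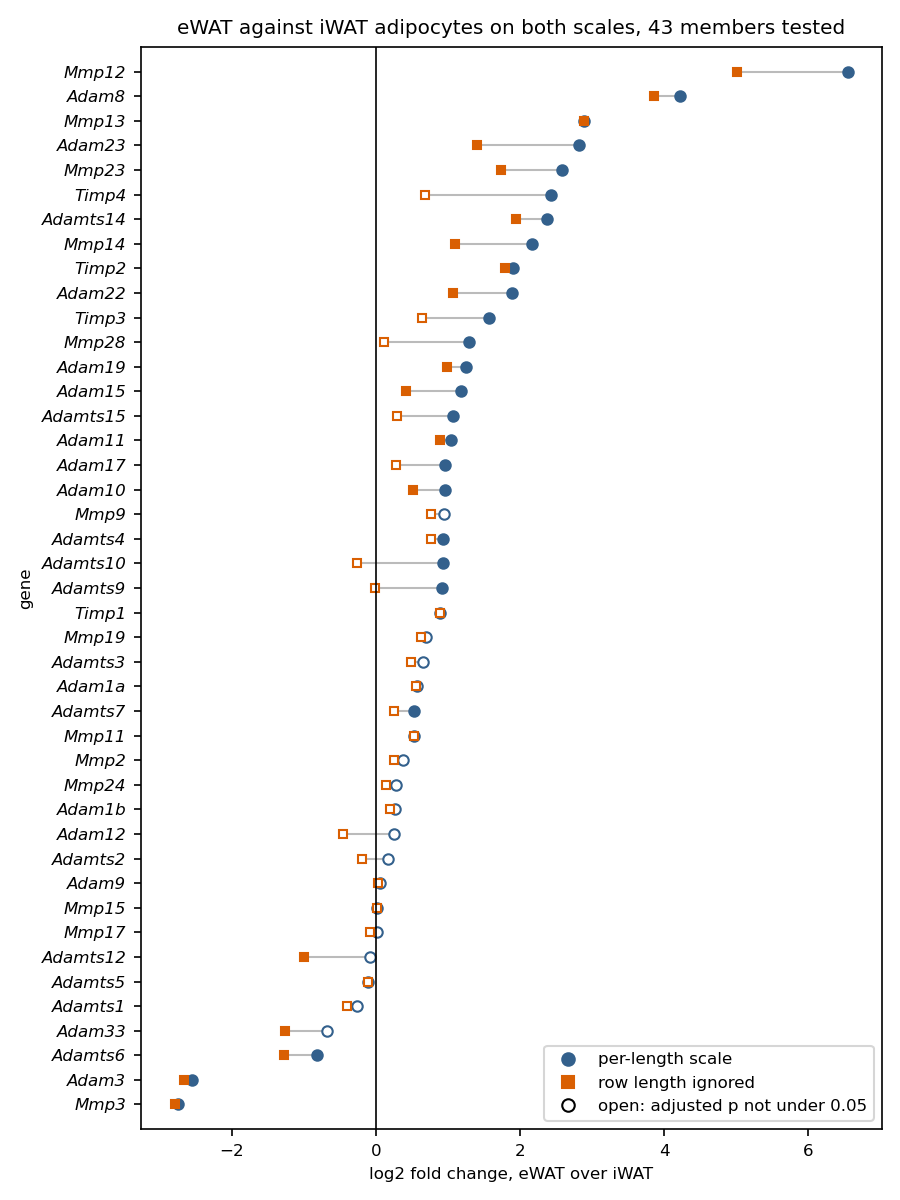
Log2 fold change of eWAT over iWAT for the 43 members tested, per length (circles) and with row length left out (squares), filled where the adjusted p was under 0.05. Mmp12 and Adam8 lead on both scales, whereas Timp4, Timp3, Mmp28, Adamts9 and Adamts10 lose the call or turn sign when row length is left out.

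Mmp12, the macrophage metalloelastase, showed the largest of these differences. It had 0.377 to 1.28 RPKM (median 0.803) in iWAT, 7.19 to 345 (median 27.6) in eWAT and 0.0174 to 0.617 (median 0.131) in BAT. The lowest eWAT sample was above the highest iWAT sample. The difference from iWAT was 6.56 ± 0.99 per length and 5.01 ± 0.92 without it (adjusted p = 1.54e-05 and 0.000647), and 4.85 per length without eWAT sample 15. Between iWAT and BAT it was 1.89 ± 0.88 (adjusted p = 0.0664), which passed without eWAT sample 15 (adjusted p = 0.00822).

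Adam8, a protease of myeloid cells, had 0.200 to 2.36 RPKM (median 0.550) in iWAT, 2.80 to 61.2 (median 4.07) in eWAT and 0.0812 to 0.516 (median 0.129) in BAT. It was higher in eWAT than in iWAT by 4.22 ± 0.87 per length and 3.86 ± 0.85 without it (adjusted p = 0.000421 and 0.00273), and by 2.57 per length without eWAT sample 15. Against BAT the iWAT difference, 1.72 ± 0.88, missed the threshold (adjusted p = 0.0945), was 0.98 without iWAT sample 11 and passed without eWAT sample 15 (adjusted p = 0.0144). The collagenase Mmp13 was 0.726 ± 0.95 RPKM in eWAT, 0.0983 ± 0.10 in iWAT and 0.146 ± 0.10 in BAT (SD, n = 6), with 2.63 in eWAT sample 15. Its difference of 2.88 ± 0.75 from iWAT, on a row that is the same in all tables, was 1.74 without that sample and 3.63 without iWAT sample 11. Without eWAT sample 15, its difference from BAT went from 2.15 to 1.01. Adam19, with medians of 0.544 RPKM in iWAT, 1.08 in eWAT and 0.729 in BAT, was higher in eWAT than in iWAT by 1.25 ± 0.35 (adjusted p = 0.00559), and by 0.66 without eWAT sample 15.

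All 7 macrophage markers found in the tables (Cd68, Emr1, Csf1r, Lyz2, Itgam, Cd14 and Mrc1) had reads in every depot, and their sum was 28.2 to 147 in iWAT, 145 to 2049 in eWAT and 21.4 to 49.5 in BAT. Mmp12, Adam8, Timp1, Timp2 and Mmp13 had their highest eWAT value in sample 15 and their highest BAT value in sample 13, the samples with the highest macrophage sum of each depot. In iWAT that sum was highest in sample 7 (147), as was Timp2, whereas Mmp12 was highest in sample 14 (sum 41.4) and Adam8, Mmp13 and Timp1 in sample 11 (sum 92.6). Of the 28 members at 1 RPKM or more, 11 had their highest eWAT value in sample 15 and 8 their lowest, Timp4 and Mmp28 among the latter. Among the 11, the highest BAT value of Adam10, Adam17 and Mmp23 was in sample 11, and that of Mmp2 and Mmp14 in sample 7. For Mmp19 it was in sample 6, and for Adam19 in sample 13. Without sample 15, the difference of Mmp12 and Adam8 between eWAT and iWAT was still called on both scales. The other eWAT samples had macrophage sums of 145 to 490, against 28.2 to 147 in iWAT. The part of macrophage RNA in these values was not tested.

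Mmp3, which cuts many matrix proteins and activates other MMPs, went the other way. It had 0.104 to 1.39 RPKM (median 0.471) in iWAT, 0.423 to 1.15 (median 0.628) in BAT and at most 0.305 in eWAT, where 29 reads were counted in all. It was lower in eWAT than in iWAT (log2 fold change -2.75 ± 0.70, adjusted p = 0.00284) and than in BAT (-3.18 ± 0.70, adjusted p = 0.000430). Without eWAT sample 15, its highest eWAT sample, these were -3.85 and -4.28. So within the chromosome 9 cluster Mmp12 and Mmp13 stood highest in eWAT and Mmp3 lowest.

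The ADAMs of the male reproductive tract serve sperm maturation and egg binding, and 20 members belong to them. Adam7, an epididymal gene, had 14.7 RPKM in eWAT sample 14 and 11.6 in eWAT sample 15, a mean of 4.37 over the depot, and at most 0.00864 in BAT and no read in iWAT. The same 2 samples held the epididymal markers Lcn5 (32.0 and 32.1 RPKM) and Crisp1 (23.5 and 15.1), which were listed at 0 in all iWAT and BAT samples. Adam7 did not pass the filter and was not tested. Adam3, a sperm gene, had 122 reads over the iWAT samples, 23 over eWAT and 3 over BAT. Adam1a and Adam1b, the fertilin alpha genes, had means of 0.549 and 0.271 RPKM in BAT and at most 0.138 in the white depots. All white adipocyte values lay below those of BAT, with Adam1b at up to 0.164 RPKM in iWAT and at least 0.168 in BAT. Both genes reached the filter only with their BAT reads, so this separation is a description. Adam1a shares 24.9% of its exonic bases with Mapkapk5.

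Another 28 members had reads but did not pass the filter: 12 Adam, 7 Adamts and 9 Mmp genes. Apart from Adam7, their depot means were all under 1 RPKM. Mmp7 had 73 reads in eWAT and none in iWAT or BAT, with 0 to 0.951 RPKM by sample. Adam28 had 103 reads in eWAT and 1 each in the other depots, with 0.249 RPKM in eWAT sample 14 and 0.827 in sample 15.

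Genes that act with these families were counted from 5 lists, beside 37.1% of all symbols called higher and 28.1% lower in iWAT against BAT. Of the activators and pericellular regulators, 15 of 17 were tested, and 10 were called higher and 1 lower in iWAT than in BAT. Tfpi2, an inhibitor of serine proteases, Plaur, the urokinase receptor, and Cd44, a hyaluronan receptor, were higher by 3.37, 3.28 and 2.22 on the log2 scale. In eWAT against BAT 12 were higher and 1 lower on both scales (all symbols, 40.1% and 21.2%), and in eWAT against iWAT 4 were higher and 2 lower on both (10.6% and 5.62%). Cd44 (3.03 per length), the urokinase Plau (2.13), the tissue activator Plat (2.09) and Plaur (1.64) led the last group. With row length left out these were 2.65, 2.13, 0.93 and 1.56, and per length without eWAT sample 15 they were 1.91, 1.02, 1.91 and 1.24. With both changes Cd44 passed (adjusted p = 0.00630), and Plau, Plat and Plaur did not (0.0538, 0.0735 and 0.0588). The difference of Plau between eWAT and BAT was 3.10 per length and 1.99 without that sample.

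Of the shed ligands and receptors, all 15 tested of 16 were called in iWAT against BAT, 13 higher and 2 lower, where 65.2% of all symbols were called. Tnf, the substrate of ADAM17, was 0.0592 RPKM in BAT, 3.33 in iWAT and 23.2 in eWAT, and was higher in eWAT than in iWAT by 2.78 ± 0.60 (adjusted p = 0.000699). Its eWAT values ran from 4.72 to 72.5 RPKM, and without eWAT sample 15, which had the highest macrophage sum, the difference was 1.90 (adjusted p = 0.00149). The part of macrophage RNA in Tnf was not tested. Areg and Ereg had no read in BAT, so they passed the filter through the white depots alone. Their calls are descriptions and no fold is given. Hbegf was 2.34, 6.15 and 0.140 RPKM in iWAT, eWAT and BAT. Dlk1, the preadipocyte factor that ADAM17 releases, was lower than in BAT in iWAT (log2 fold change -2.84 ± 0.42, adjusted p = 7.96e-06) at means of 0.0474 and 0.316 RPKM.

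Of the proteoglycan substrates, 6 of 8 were tested, and 3 were called higher and 2 lower in iWAT than in BAT, where 37.1% and 28.1% of all symbols were. Decorin, Dcn, was 3.83 RPKM in iWAT, 43.9 in eWAT and 13.03 in BAT, lower in iWAT than in BAT by 1.93 ± 0.26 (log2 fold change -1.93, adjusted p = 2.39e-06) and higher in eWAT than in iWAT by 3.47 per length and 1.70 without it. Perlecan, Hspg2, was 33.1, 38.3 and 11.2 RPKM and was higher in iWAT than in BAT by 1.40 ± 0.16 (adjusted p = 5.31e-07). Versican, Vcan, the substrate of Adamts1, Adamts4 and Adamts5, was 0.142, 0.352 and 0.0980 RPKM, and the iWAT difference from BAT did not pass (0.36 ± 0.32, adjusted p = 0.330). The ADAMTS-like proteins, which resemble ADAMTS proteases but lack the protease domain, had 2 called higher in iWAT than in BAT (Adamtsl2 and Adamtsl4, 4.84 and 3.32) and 4 lower of 7 tested, beside the same 37.1% and 28.1%. Adamtsl2 had a mean of 0.0183 RPKM in BAT and a lowest value of 0, so its fold rests on a level near the floor. Of the other matrix-processing proteases and helpers, 4 of 7 were tested and 2 were called higher, Pcolce2 (2.51) and Bmp1 (0.31), beside 37.1% of all symbols. Bmp1 did not pass with the number in the title as a block.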

How the data were processed

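Total RNA of 6 iWAT adipocyte, 6 eWAT adipocyte and 6 BAT samples was sequenced on an Illumina HiSeq instrument. The submitters' processing notes name cutadapt (version 1.16), HISAT2 (version 2.1.0) and mm9, and the paper names the Genomatix Genome Analyzer; the annotation and the counting are not given in the sources used here. The authors deposited a read count per row, not normalized, and an RPKM per row. RPKM was found to equal the count divided by row length and by 1 read total per sample.

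Members were matched by symbol. Members and lists were chosen with earlier results of these data known. Each member's merged row (iWAT, BAT) or most-read transcript (eWAT) was taken. edgeR (version 4.0.16, R version 4.3.3) glmQLFit and glmQLFTest were run on the deposited counts of 18383 symbols that had 10 or more reads in 6 or more samples. All 18 samples and no block were used, with TMM factors from rows identical in all tables and row length in the offset. Benjamini-Hochberg adjustment ran over all symbols tested, with a threshold of 0.05. Fold changes are log2 values ± SE. The fit was tested on simulated data. Named were the TIMPs, members whose mean RPKM reached 1 in some depot, the 6 largest called changes in each direction and the most-read member of each role group; Mmp3, Mmp13, Mmp7, Mmp9, Adam3, Adam1a, Adam1b, Adam11, Adam22, Adam28, Adamts3, Adamts6, Adamts14 and Adamts15 were added after their values were seen. Alternatives were DESeq2 (version 1.42.0), RLE factors, other filters, limma (version 3.58.1) on log2(RPKM + 0.1) and log2(RPKM + 1), the number in the title as a block, other eWAT rows, no row length, merged row lengths for the eWAT sums, and fits without single samples. Reads carry no molecular identifiers, so floors cover counting error only. Exon overlaps come from GENCODE vM1.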

Additional observations from a re-analysis of the deposited data

Results flagged for a closer look

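In each depot, the highest or lowest sample was set against the other 5 for every member with a mean RPKM of at least 1 there. Of 67 such values, 17 stood apart by Dixon's criterion, where chance would give 3.35, and genes are not independent.

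In eWAT sample 15, 8 members were far above the other 5 eWAT samples: Mmp12 at 345 RPKM (others at most 48.5), Mmp19 at 100.02 (41.5), Timp2 at 64.1 (18.1), Adam8 at 61.2 (10.3), Adam10 at 24.0 (15.1), Adam17 at 18.04 (8.31), Timp1 at 8.19 (3.68) and Adam19 at 3.84 (1.49). The macrophage markers were highest in the same sample, and their part in these values was not tested. In eWAT sample 8, Timp3 was 147 RPKM (others at most 73.8), beside the highest endothelial sum of the depot.

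In BAT sample 11, 4 members were above the other BAT samples: Adamts1 at 8.60 RPKM (others at most 3.86), Adam15 at 7.51 (4.48), Adam17 at 3.81 (3.04) and Adamts9 at 3.21 (1.42). In iWAT, Mmp19 was 47.3 RPKM in sample 11 (others at most 24.5) and Timp2 was 13.2 in sample 7 (others at most 5.80). Mmp24 was 2.22 in iWAT sample 7 (others at least 2.97) and Adam9 was 20.7 in iWAT sample 14 (others at least 28.0).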

How the results depend on the processing

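DESeq2, RLE factors, no filter and limma kept every count of called members within 1.5 times of 27 (iWAT against BAT), 38 (eWAT against BAT) and 25 (eWAT against iWAT). With a mean RPKM of at least 1 as filter, fewer members were tested and the counts were 16, 25 and 15. On identical rows alone, with 4 members tested, they were 3 for eWAT against BAT and 1 for eWAT against iWAT. A minimum of 0.1 in place of 1 RPKM gave 37, 43 and 41 expressed members in iWAT, eWAT and BAT. With merged row lengths in eWAT the shares of the summed RPKM were 20.2% (ADAM), 38.5% (ADAMTS) and 25.9% (TIMP), and the sum 373. Without single samples the counts ran from 24 to 30, 34 to 39 and 21 to 27, and expressed members from 21 to 21, 28 to 30 and 17 to 18.

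With the number in the title as a replicate block the counts were 26, 33 and 23, and with row length left out as well 10 for eWAT against iWAT, where 8 of the 13 members higher on both scales did not pass (adjusted p 0.0555 to 0.128). Under the block alone, both Mmp15 calls (adjusted p = 0.0577 and 0.0777) and those of Bmp1 in iWAT against BAT (0.142) and of Tnf (0.0628) and Plau (0.113) in eWAT against iWAT did not pass. The numbers are not shown to pair samples: same-numbered samples' deviations correlated by -0.038 to 0.12 (iWAT and BAT), -0.14 to 0.053 (eWAT and BAT) and -0.31 to 0.14 (iWAT and eWAT), and 3 of 8, 0 of 8 and 0 of 10 samples correlated best with their own number.

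Over 99 log2 fold changes of named members and all alternatives, 2776 values kept direction and side of the threshold, 160 lost the call, 29 gained it and 28 turned sign. Timp3 in iWAT against BAT ran from -0.086 (without iWAT sample 14) to 0.32 over fits without single samples, and Mmp2 in eWAT against iWAT from -0.012 (without eWAT sample 15) to 0.70. Mmp23 in eWAT against BAT was -0.12 with row length left out, -0.50 also without eWAT sample 15 and -0.24 also with the block. In eWAT against iWAT with row length left out, Adamts10 was -0.26 (-0.24 without sample 15, -0.26 with the block), Adamts9 -0.020 (-0.063 with the block), Adam12 -0.45 (-0.44, -0.57), Adamts2 -0.19 (-0.17, -0.12), and Adam17 -0.094 and Mmp2 -0.14 without sample 15. Adam12 in eWAT against BAT was 0.12 and 0.084 in limma and 0.80 on the highest-RPKM transcript, and -0.25 to 0.019 without single samples (above 0 without eWAT sample 7, 0.018, or BAT sample 8). In eWAT against iWAT, Adamts12 was 0.0038 in limma and 0.43 on that transcript, and -0.15 to 0.046 without single samples (above 0 without iWAT sample 7 or 11, 0.026), and Adam9 -0.0022 to 0.094 (below 0 without iWAT sample 14). The cause was not tested.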
